A study of Mus musculus with 5 samples.

Results

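Cadherins are membrane proteins that hold cells together in the presence of calcium, and the group described here is the cadherins with a plain number in their symbol and the protocadherins that stand outside the Pcdha, Pcdhb and Pcdhg clusters. Members were all rows whose symbol was Cdh or Pcdh followed by a number, with an optional x, which gave 35 of 32532 listed genes, 23 of them cadherins and 12 protocadherins. RNA bound to tagged ribosomes was measured in dentate gyrus (3 libraries) and in cerebral cortex (2 libraries) of adult, untreated mice. All 5 libraries share 1 genotype, the KL100 line of Rbp4-Cre crossed to Rosa26-LSL-EGFP/Rpl10a, in which Cre switches on an EGFP-tagged ribosomal protein, and all are anti-EGFP immunopurified fractions. As background, KL100 is a common Cre driver for deep-layer pyramidal neurons of the cortex, and no unpurified input was analysed here. Nothing says that replicates are separate animals, so every p-value here reflects only how far these libraries spread, which may be technical.

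Classical cadherins bind the same or a closely related cadherin on the next cell through their outermost repeat and are tied to actin inside the cell by catenins. They fall into type I members such as N-cadherin, which are broadly expressed, and type II members, whose combinations differ between groups of neurons and take part in axon sorting and synapse formation. Non-clustered protocadherins lack the catenin-binding tail. Their delta1 branch carries a motif that binds protein phosphatase 1, and several delta2 members recruit actin regulators of the WAVE complex.

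The tissue labels were set beside marker genes. Those lists were chosen with earlier results of these data known, so their calls are no independent check of the labels. All 8 markers of granule cells were called toward dentate gyrus and summed to 4982 to 5430 CPM (gene counts scaled to a common library size with the trimmed mean of M values) there, against 311 and 412 CPM in cortex. All 8 cortical layer markers were called toward cortex. Prox1, a granule cell transcription factor, was at 1057 ± 104 CPM in dentate gyrus (SD, n = 3), against 8.52 ± 8.70 CPM in cortex (SD, n = 2). A pair of libraries stood apart. Dentate gyrus replicate 2 held cortical layer markers at a sum of 255 CPM, where replicates 1 and 3 held 92.0 and 124 CPM. Every marker of that list except Rorb was highest of its tissue in replicate 2. Rorb was lowest there, at 16.3, 13.1 and 20.1 CPM in dentate gyrus replicates 1, 2 and 3. Fibroblast markers summed to 121 CPM in dentate gyrus replicate 2, against 6.29 and 16.3 CPM in replicates 1 and 3. Of that sum Dcn alone made 114 CPM, while Col1a2, at 0.0444 CPM, was the lowest of its tissue. Fezf2, a cortical layer 5 transcription factor, was at 1.82, 60.2 and 17.5 CPM in dentate gyrus replicates 1, 2 and 3, and at 353 and 283 CPM in cortex replicates 1 and 2. Its call as higher in cortex had an adjusted p of 0.0190, which moved to 0.0586 when dentate gyrus replicate 3 was left out, to 0.0652 when cortex replicate 1 was, and to 0.217 with robust dispersion. Its log2 fold change of -3.60 was -5.08 without dentate gyrus replicate 2. Cortex replicate 1 held cerebellar Purkinje cell markers at a sum of 484 CPM, against 11.4 CPM in cortex replicate 2. GABAergic interneuron markers summed to 184 to 218 CPM in dentate gyrus and to 896 and 883 CPM in cortex. Most of the cortex sum was Sst, at 699 and 641 CPM, and 4 of the 7 were higher in cortex, while Gad1 was higher in dentate gyrus (64.5 ± 7.21 against 33.8 ± 10.2 CPM, adjusted p 0.0276). The part of any of these cells in the results was not tested. In pulled-down RNA of a tissue, fewer cells of a type and less RNA per cell cannot be told apart.

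Cadherin and protocadherin RNA summed to overlapping levels in dentate gyrus and cortex, while single members differed in both directions. The 35 members together were at 2105, 2500 and 2356 CPM in dentate gyrus replicates 1, 2 and 3, and at 2304 and 2443 CPM in cortex replicates 1 and 2, so the tissues overlapped. Of the 35, 9 did not pass the filter on low counts. Of the 26 tested, 8 rose in dentate gyrus relative to cortex and 8 fell, by edgeR's quasi-likelihood test at a Benjamini-Hochberg adjusted p under 0.05. With either of 2 other scalings the split was 6 and 10. The 16 calls are 61.5% of the tested members, beside 21.3% of the 14136 genes tested. By direction, 30.8% were higher in dentate gyrus and 30.8% were lower there, beside 10.5% and 10.8% of all tested genes. A low gene passes the filter only where it is expressed, which favours calls among the members that passed. Large changes were more often toward cortex, among the members as among all tested genes. At 4-fold or more, 8 members (30.8% of those tested) were called toward cortex, beside 4.56% of all tested genes. Toward dentate gyrus it was 2 members (7.69%), beside 2.6% of all tested genes. The median log2 fold change, dentate gyrus minus cortex, was -0.38 over tested members and 0.02 over all tested genes. Tissues did not overlap for 20 of the 26, or 76.9%, beside 50.1% of all tested genes. Leaving out cortex replicate 1 gave 4 members higher in dentate gyrus, and leaving out cortex replicate 2, dentate gyrus replicate 1 or dentate gyrus replicate 3 gave 5. Calls held under all 16 alternative analyses for 9 members, Pcdh20, Cdh9, Pcdh19 and Pcdh17 toward dentate gyrus and Pcdh10, Pcdh7, Pcdh15, Cdh7 and Cdh10 toward cortex.

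**Figure D1:**
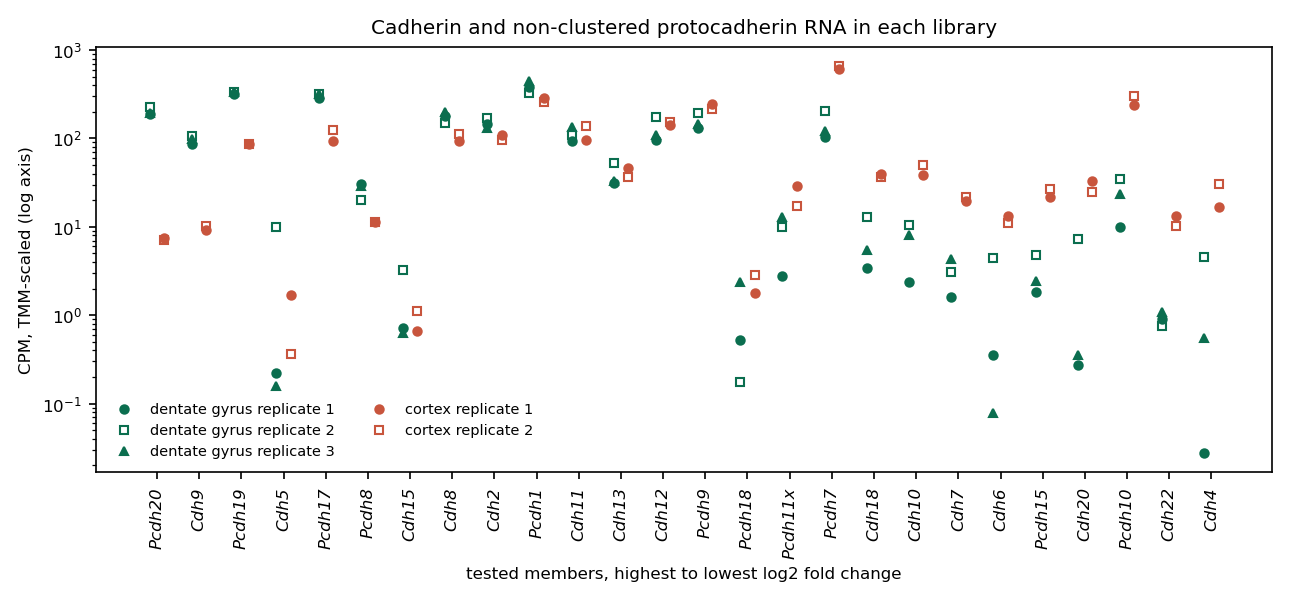
CPM of each tested member (log axis) in every library, with 3 dentate gyrus libraries in green left of 2 cortex libraries in orange, and members ordered from the highest to the lowest log2 fold change. Pcdh20 and Cdh9 stand at the left with all dentate gyrus libraries above cortex, and Cdh6, Cdh20 and Cdh4 at the right have dentate gyrus replicate 2, the open square, above the other dentate gyrus libraries.

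**Figure D2:**
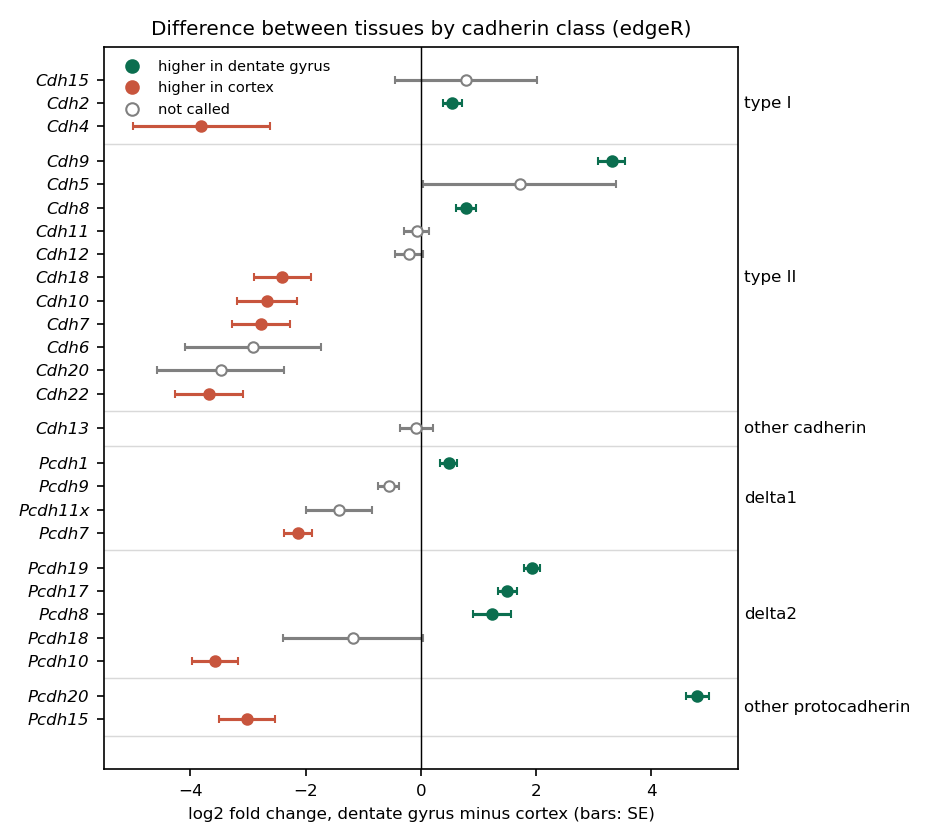
Log2 fold change (dentate gyrus minus cortex) with its standard error for the 26 tested members, grouped by class. Filled points were called by edgeR, open points were not, and both types of classical cadherin and both delta branches hold members on either side of 0.

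Among type I cadherins, 1 member was higher in dentate gyrus and 1 in cortex. Cdh2, which encodes N-cadherin, the main classical cadherin of neurons, was at 147, 170 and 133 CPM in dentate gyrus replicates 1, 2 and 3, and at 108 and 96.7 CPM in cortex replicates 1 and 2. The tissues did not overlap, and the log2 fold change was 0.55 (SE 0.17, adjusted p 0.0444). That call was lost whichever library was left out, with adjusted p of 0.0563 to 0.253, and its p was 0.0510 and 0.0561 under other scalings. Cdh4, which encodes R-cadherin, a type I cadherin that can pair with N-cadherin, was at 0.0276, 4.57 and 0.548 CPM in dentate gyrus, against 16.9 and 30.4 CPM in cortex. Dentate gyrus replicate 2 was far above the other dentate gyrus libraries, yet below cortex. The log2 fold change was -3.81 (SE 1.19, adjusted p 0.0465), and it was -6.45 with an adjusted p of 0.00122 without dentate gyrus replicate 2. Leaving out dentate gyrus replicate 3 gave an adjusted p of 0.104, and leaving out cortex replicate 1 or 2 gave 0.0857 or 0.197. It was 0.117 with robust dispersion and 0.120 by DESeq2. Cdh15, the M-cadherin gene known from muscle, was at 0.717, 3.24 and 0.626 CPM in dentate gyrus, against 0.655 and 1.11 CPM in cortex, and was not called. Cdh1, the epithelial E-cadherin gene, had 4, 2 and 0 counts in dentate gyrus and 5 and 5 counts in cortex. Cdh3, the P-cadherin gene, was listed at 0 in every library, where 3 counts correspond to 0.0814 to 0.133 CPM.

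Type II cadherins differed in both directions. Of 13, 11 were tested, with 2 called toward dentate gyrus and 4 toward cortex, and the class summed to 539 ± 66.3 CPM in dentate gyrus (SD, n = 3), against 536 ± 47.7 CPM in cortex (SD, n = 2). Cdh9 is known from mouse hippocampus, where it takes part in the synapses that granule cells make on CA3 neurons. It was at 86.8, 106 and 97.5 CPM in dentate gyrus replicates 1, 2 and 3, and at 9.17 and 10.2 CPM in cortex. Every dentate gyrus library was far above both cortex libraries, with a log2 fold change of 3.32 (SE 0.23, adjusted p 1.4e-05). Markers of hippocampal CA pyramidal neurons summed to 61.4 to 120.4 CPM in dentate gyrus, against 299 and 283 CPM in cortex. That list was split, with Grik4 called toward dentate gyrus (13.8 against 3.36 CPM, adjusted p 0.0203) and Mpped1, Bok and Coch toward cortex. Mpped1 alone made 138 and 144 CPM of the cortex sums. Fibcd1 was higher in every dentate gyrus library (6.76, 5.24 and 2.43 CPM, against 1.48 and 0.697 CPM in cortex) but was not called (adjusted p 0.113). The part of CA neurons in the Cdh9 difference was not tested. Cdh8, another neuronal type II cadherin, was at 180.1, 151 and 197 CPM in dentate gyrus, against 92.9 and 112 CPM in cortex. Its difference was smaller, with a log2 fold change of 0.78 (SE 0.17, adjusted p 0.0107). Leaving out cortex replicate 1 gave an adjusted p of 0.0875.

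The type II cadherins higher in cortex were less abundant than Cdh8. Cdh10 was at 2.40, 10.6 and 8.14 CPM in dentate gyrus, against 38.9 and 50.6 CPM in cortex, a log2 fold change of -2.67 (SE 0.52, adjusted p 0.00512). Cdh18 was at 3.45, 12.9 and 5.52 CPM in dentate gyrus, against 40.0 and 36.9 CPM in cortex, with a log2 fold change of -2.41 (SE 0.50, adjusted p 0.00711). In both, dentate gyrus replicate 2 was the highest dentate gyrus library and still lay below cortex. Without it the log2 fold changes were -3.11 for Cdh10 and -3.12 for Cdh18. Cdh7 was at 1.60, 3.06 and 4.38 CPM in dentate gyrus, against 19.4 and 21.9 CPM in cortex (log2 -2.78, SE 0.50, adjusted p 0.00356). Cdh22 was at 0.910, 0.755 and 1.10 CPM in dentate gyrus, against 13.3 and 10.3 CPM in cortex (log2 -3.68, SE 0.59, adjusted p 0.00177). Unlike the other cortex-high cadherins described here, Cdh22 had dentate gyrus replicate 2 as its lowest library. With cortex replicate 1 and dentate gyrus replicate 2 both left out, its adjusted p was 0.0586.

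A further pair of type II cadherins had the tissues apart but missed the threshold. Cdh20 was at 0.276, 7.32 and 0.352 CPM in dentate gyrus replicates 1, 2 and 3, against 33.4 and 24.6 CPM in cortex, a log2 fold change of -3.47 with an adjusted p of 0.0504. Cdh6, the K-cadherin gene first known from kidney, was at 0.359, 4.48 and 0.0783 CPM in dentate gyrus, against 13.3 and 11.2 CPM in cortex (log2 -2.92, adjusted p 0.113). In both, dentate gyrus replicate 2 was more than the other dentate gyrus libraries together. That library had Fezf2 at 60.2 CPM, but its Rorb was the lowest of its tissue. Without that library the log2 fold change of Cdh20 was -6.54 (adjusted p 3.71e-05) and that of Cdh6 was -5.74 (adjusted p 0.0014). Cdh20 also passed under 2 other scalings, at an adjusted p of 0.0473 and 0.0492, with either other filter, with a replicate block and by limma voom (0.00104). It did not pass with robust dispersion (0.142), by DESeq2 (0.107), or without dentate gyrus replicate 1 (0.0559) or 3 (0.0848). Its log2 fold change was -3.23 when cortex replicate 1 was left out. Cdh6 passed by DESeq2 (0.0406) and limma voom (0.00665) but not under the other scalings (0.107 and 0.109).

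The remaining type II members were not called or were too scarce to test. Cdh11, known from mesenchyme and bone, was at 113 ± 20.7 CPM in dentate gyrus (SD, n = 3), against 118 ± 30.0 CPM in cortex (SD, n = 2), with a log2 fold change of -0.07 (SE 0.22). Cdh12 was at 127 ± 42.6 CPM in dentate gyrus, against 147 ± 6.39 CPM in cortex (log2 -0.21, SE 0.24), and its libraries overlapped. Cdh5, the VE-cadherin gene of endothelial junctions, was at 0.221, 9.90 and 0.157 CPM in dentate gyrus replicates 1, 2 and 3, against 1.68 and 0.369 CPM in cortex. Its high library was dentate gyrus replicate 2, where other endothelial markers summed to 19.2 CPM, against 8.27 and 11.7 CPM in replicates 1 and 3. Flt1 made 14.0 CPM of the replicate 2 sum, and Flt1, Kdr and Tek were each highest of their tissue there. Pecam1 was lowest there, at 1.30, 0.400 and 1.76 CPM in replicates 1, 2 and 3. The endothelial marker Cldn5 was at 0, 0.0444 and 0.0391 CPM in dentate gyrus and at 0 in cortex. Cdh19, known from glia, had 4, 3 and 0 counts in dentate gyrus and 0 and 1 counts in cortex, and Cdh24 had 2, 18 and 7 counts in dentate gyrus and 11 and 1 counts in cortex.

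Cadherins outside both types gave no call. Cdh13, the T-cadherin gene, whose product is held in the membrane by a lipid anchor and has no tail for catenins, was at 31.6, 52.1 and 33.0 CPM in dentate gyrus, against 45.8 and 36.4 CPM in cortex. The tissues overlapped, and the log2 fold change was -0.08 (SE 0.29, adjusted p 0.886). Cdh23, a partner of Pcdh15 in the tip links of inner ear hair cells, had 9, 5 and 3 counts in dentate gyrus and 7 and 0 counts in cortex. Cdh16, Cdh17 and Cdh26 were listed at 0 in all 5 libraries.

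Protocadherins made up most of the summed reads of the family, at 1460, 1676 and 1630 CPM in dentate gyrus and 1630 and 1708 CPM in cortex. The delta1 branch had sums of 617, 738 and 724 CPM in dentate gyrus against 1170 and 1150 CPM in cortex. Pcdh7 was at 104, 205 and 122 CPM in dentate gyrus replicates 1, 2 and 3, against 609 and 654 CPM in cortex. Its log2 fold change was -2.14 (SE 0.24, adjusted p 0.00022), with dentate gyrus replicate 2 again the highest of its tissue and the value at -2.49 without it. Pcdh1 went the other way, at 379.5, 327 and 443 CPM in dentate gyrus against 286 and 261 CPM in cortex. Its log2 fold change was 0.49 (SE 0.15, adjusted p 0.0430). The adjusted p of Pcdh1 was 0.0766 and 0.160 without dentate gyrus replicates 1 and 3, 0.103 and 0.254 without cortex replicates 1 and 2, and 0.0507 to 0.0571 under other scalings or a stricter filter. Pcdh9 was at 130.2, 196 and 146 CPM in dentate gyrus, against 246 and 218 CPM in cortex, a log2 fold change of -0.56 (SE 0.18) that missed the threshold at an adjusted p of 0.0571. Without dentate gyrus replicate 2 it was -0.76 with an adjusted p of 0.0102. The adjusted p of Pcdh9 was 0.0486 and 0.0455 under other scalings and 0.257 when cortex replicate 1 was left out. Pcdh11x, on the X chromosome, was at 2.76, 10.03 and 13.0 CPM in dentate gyrus, against 28.8 and 17.1 CPM in cortex (log2 -1.42, SE 0.58, adjusted p 0.114).

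**Figure D3:**
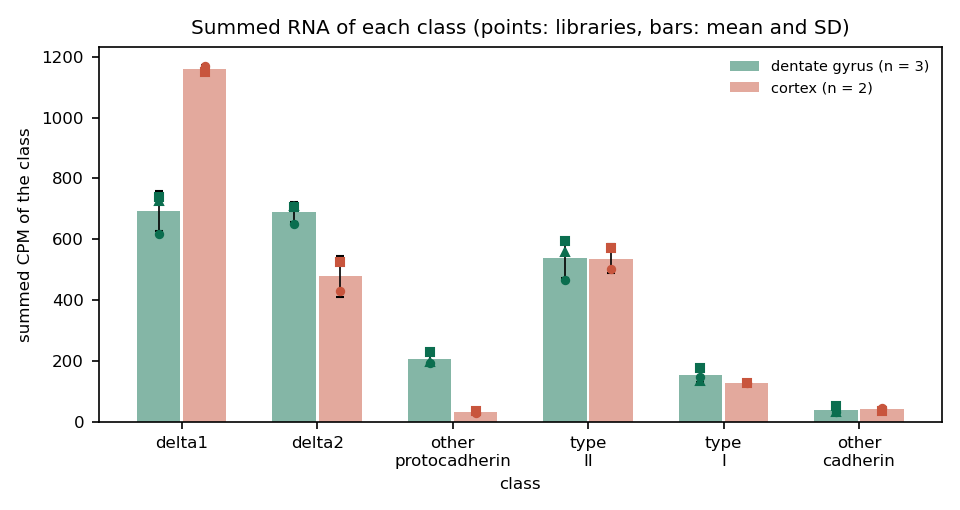
Summed CPM of each class, with dentate gyrus (3 libraries, green) left of cortex (2 libraries, orange). Bars are means, error bars SD and points single libraries. The delta1 sum was lower in dentate gyrus (693 against 1160 CPM), where Pcdh7 was at 144 against 632 CPM and Pcdh1 went the other way. The delta2 sum was higher in dentate gyrus (689 against 478 CPM), with Pcdh10 going the other way. The sum of the remaining protocadherins was also higher there (206 against 31.6 CPM). Pcdh20 made 203 against 7.24 CPM of it, and Pcdh15 went the other way (3.01 against 24.3 CPM).

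Of 5 delta2 protocadherins, 3 were called toward dentate gyrus and 1 toward cortex. Pcdh19, on the X chromosome, binds N-cadherin and is the gene of a clustering epilepsy in girls. It was at 321, 333 and 339 CPM in dentate gyrus replicates 1, 2 and 3, against 86.4 and 87.2 CPM in cortex. Its libraries agreed closely within each tissue, and the log2 fold change was 1.93 (SE 0.13, adjusted p 1.3e-05). Pcdh17, which takes part in the assembly of synaptic vesicles in mouse corticostriatal circuits, was at 288, 320.0 and 316 CPM in dentate gyrus, against 92.9 and 124 CPM in cortex. That was a log2 fold change of 1.51 (SE 0.16, adjusted p 0.000173). Pcdh8, also called arcadlin, is induced by neuronal activity and promotes uptake of N-cadherin from the membrane. It was at 30.8, 20.3 and 28.8 CPM in dentate gyrus, against 11.4 and 11.2 CPM in cortex (log2 1.24, SE 0.33, adjusted p 0.0260). Its adjusted p was 0.0769 and 0.0746 without dentate gyrus replicates 1 and 3, and 0.104 and 0.124 without cortex replicates 1 and 2.

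Pcdh10 ran against the 3 delta2 members called toward dentate gyrus. Its product recruits a WAVE complex subunit, Nck-associated protein, to cell contacts. It was at 9.98, 34.4 and 23.5 CPM in dentate gyrus, against 238 and 299 CPM in cortex, a log2 fold change of -3.58 (SE 0.40, adjusted p 0.000216). Without dentate gyrus replicate 2, its highest dentate gyrus library, the value was -4.02. Exons of 1700027H10Rik overlap Pcdh10 on the opposite strand, and that gene had 0, 17 and 5 counts in dentate gyrus and 40 and 194 counts in cortex, where Pcdh10 itself had 8366 and 7295 counts. Pcdh18, which binds the adaptor Dab1, was low, at 0.524, 0.178 and 2.39 CPM in dentate gyrus, against 1.79 and 2.87 CPM in cortex, and was not called.

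Pcdh20, a protocadherin outside both delta branches, was called toward dentate gyrus. It was at 189.8, 225 and 194 CPM in dentate gyrus replicates 1, 2 and 3, against 7.46 and 7.01 CPM in cortex replicates 1 and 2. Every library of a tissue was close to the others, and the mean CPM was 28.0 times as high in dentate gyrus, with a log2 fold change of 4.81 (SE 0.20, adjusted p 1e-06). Over the 16 alternatives its log2 fold change kept its sign and its call. Pcdh15, the partner of Cdh23 in hair cell tip links, was at 1.82, 4.75 and 2.47 CPM in dentate gyrus, against 21.9 and 26.8 CPM in cortex, with a log2 fold change of -3.02 (SE 0.49, adjusted p 0.00187). Pcdh12, known from endothelium, had 11 counts in dentate gyrus replicate 1 and 0 in every other library.

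The promoters of the protocadherins with the smallest adjusted p in each direction are shown because they stand beside the most clearly called members. RefSeq's table on GRCm38.p6 had an entry for 22 of the 35 members, each reaching from 250 bases before to 50 bases after a RefSeq start. That start lay within 50 bases of the GENCODE start for 13 of the 22, Pcdh20, Pcdh19 and Pcdh10 among them, and 114 bases inside the gene for Pcdh7. For Cdh12, Cdh18 and Pcdh15 it lay over 100000 bases inside the gene, so their windows belong to an inner start. Capitals mark E-boxes (CANNTG, the core bound by basic helix-loop-helix factors) and GC boxes (GGGCGG), on either strand.
Pcdh20 promoter, chr14:88471347-88471646, minus strand: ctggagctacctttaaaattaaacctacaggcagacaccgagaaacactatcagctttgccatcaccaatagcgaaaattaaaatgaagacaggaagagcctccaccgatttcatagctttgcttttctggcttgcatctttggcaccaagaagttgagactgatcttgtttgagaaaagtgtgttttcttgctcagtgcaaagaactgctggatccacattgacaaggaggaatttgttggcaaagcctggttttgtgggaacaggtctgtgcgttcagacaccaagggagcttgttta
Pcdh19 promoter, chrX:133688944-133689243, minus strand: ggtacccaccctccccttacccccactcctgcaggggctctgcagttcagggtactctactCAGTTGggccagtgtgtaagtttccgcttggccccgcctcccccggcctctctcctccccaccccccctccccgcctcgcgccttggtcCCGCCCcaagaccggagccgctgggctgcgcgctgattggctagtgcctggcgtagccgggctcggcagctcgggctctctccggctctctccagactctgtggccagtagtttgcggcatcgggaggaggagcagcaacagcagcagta
Pcdh10 promoter, chr3:45378148-45378447, plus strand: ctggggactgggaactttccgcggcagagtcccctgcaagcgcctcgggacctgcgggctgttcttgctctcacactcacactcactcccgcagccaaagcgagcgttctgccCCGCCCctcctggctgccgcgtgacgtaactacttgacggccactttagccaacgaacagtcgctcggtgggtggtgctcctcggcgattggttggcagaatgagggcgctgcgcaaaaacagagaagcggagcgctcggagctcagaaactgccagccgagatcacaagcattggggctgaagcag
Pcdh7 promoter, chr5:57717831-57718130, plus strand: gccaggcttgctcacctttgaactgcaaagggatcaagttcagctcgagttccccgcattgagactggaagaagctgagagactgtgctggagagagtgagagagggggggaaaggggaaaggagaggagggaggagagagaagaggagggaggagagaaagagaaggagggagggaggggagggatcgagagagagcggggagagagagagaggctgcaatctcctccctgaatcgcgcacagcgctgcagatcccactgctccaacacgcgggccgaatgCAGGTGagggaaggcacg
The Pcdh20 window held neither motif and 4 CpG dinucleotides, against 18 in Pcdh19, 24 in Pcdh10 and 11 in Pcdh7, with a median of 7 over the table's 32851 promoter entries. CANNTG was in 3 of 6 promoters of members higher in dentate gyrus and 4 of 7 of those higher in cortex, and in 72.3% of all promoters of the same length. GGGCGG was in 3 of 6 and 2 of 7, and in 35.7% of all promoters. A match describes the letters of the window and does not show a bound site.

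Levels of different members were compared as CPM per kb of exon. By mean, the 5 highest in dentate gyrus were Pcdh1, Pcdh20, Pcdh19, Cdh9 and Pcdh17, which held 56.0% of the length-scaled total of the family. Pcdh17 was at ranks 6, 7 and 6 within dentate gyrus replicates 1, 2 and 3. Rank 5 was Cdh8 in replicates 1 and 3, and Pcdh9 in replicate 2. In cortex the 5 highest were Pcdh7, Pcdh9, Pcdh1, Cdh12 and Pcdh10, with 62.3%. Only Pcdh1 was among both of these sets of 5 by mean. In dentate gyrus Pcdh1 was at 43.6 ± 6.60 CPM per kb and Pcdh20 at 36.9 ± 3.54 CPM per kb (SD, n = 3), and their libraries overlapped. Pcdh19 followed at 31.6 ± 0.864 CPM per kb, below every Pcdh20 library, and Cdh9 at 27.4 ± 2.74 CPM per kb. Pcdh17, at 23.7 ± 1.35 CPM per kb, overlapped with Cdh9 over libraries but was below it within each library. In cortex Pcdh7 led at 59.6 ± 3.01 CPM per kb (SD, n = 2), above all other members in both libraries. Pcdh9 at 34.2 ± 2.95 and Pcdh1 at 31.1 ± 1.98 CPM per kb overlapped over libraries, with Pcdh9 the higher within each library. Cdh12 was at 22.6 and 24.0 CPM per kb in replicates 1 and 2. Pcdh20 was at rank 2 of 35 members in dentate gyrus and rank 22 in cortex, while Pcdh7 was at rank 10 in dentate gyrus and rank 1 in cortex. With the longest transcript as the length, Pcdh1 and Pcdh20 were still the top pair in dentate gyrus and Pcdh7 still led in cortex. Cdh8 and Cdh2 then entered the dentate gyrus top 5 at ranks 3 and 5, and Cdh9 and Pcdh17 moved to ranks 6 and 7. The cortex order changed as well. There Pcdh1 stood above Pcdh9 (means of 50.5 and 35.5 CPM per kb), and Pcdh10 above Cdh12 (32.6 and 24.5 CPM per kb).

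**Figure D4:**
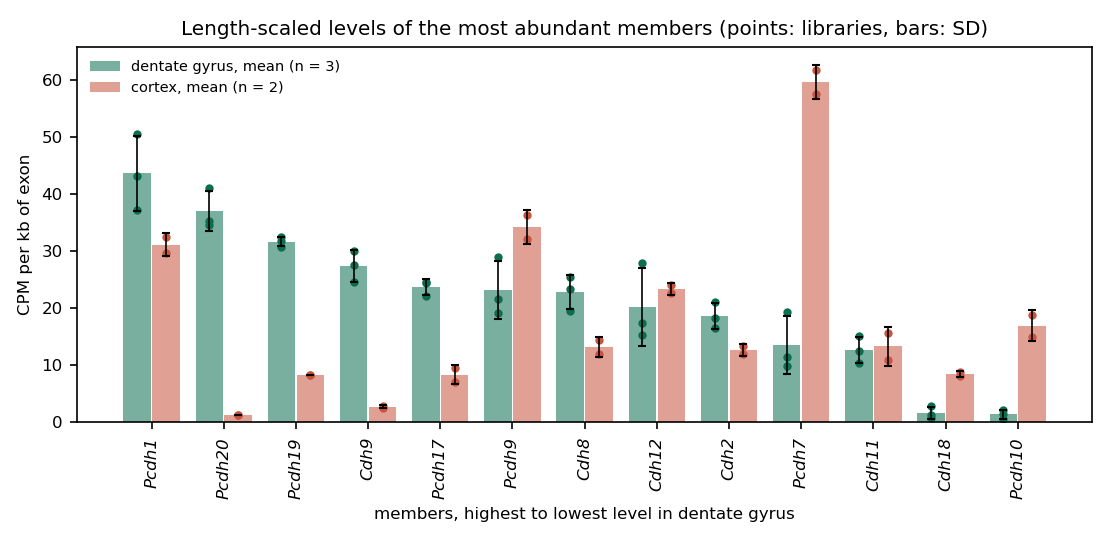
CPM per kb of exon of the members among the 11 highest of either tissue, with dentate gyrus (green, n = 3) left of cortex (orange, n = 2). Bars are means, error bars SD and points libraries. Pcdh20 was at 36.9 CPM per kb in dentate gyrus and 1.32 in cortex, and Pcdh7 at 13.6 in dentate gyrus and 59.6 in cortex.

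Several members lie within 12 Mb of another member on the same chromosome, and such neighbours did not all move the same way. Positions come from GENCODE M21, whose GRCm38 assembly is mm10. On chromosome 15, Cdh6, Cdh9, Cdh10, Cdh12 and Cdh18 lie between 13028701 and 23474418, and Cdh9 was higher in dentate gyrus while Cdh10 and Cdh18 were higher in cortex. Cdh9 occupies 16728756 to 16857094 and Cdh10 18818947 to 19014236, both on the plus strand. On chromosome 14, Pcdh8, Pcdh17, Pcdh20 and Pcdh9 lie between 79766775 and 93890679. Pcdh8, Pcdh17 and Pcdh20 were higher in dentate gyrus, and Pcdh9 was not called. On chromosome 1, Cdh20, Cdh7 and Cdh19 lie between 104768529 and 110977584, where Cdh7 was higher in cortex and Cdh20 had the adjusted p of 0.0504 given above. On chromosome 8, of 8 members between 99024471 and 122867397, Cdh8 was the 1 called, while 4 were not called and 3 were not tested. Gene size differed widely, since Pcdh20 spans 6.65 kb and Pcdh15 spans 1550.4 kb.

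Catenins, which link classical cadherins to actin, and a set of their relatives and binding partners were called toward cortex more often than toward dentate gyrus. Of 12 tested, 1 was higher in dentate gyrus and 6 in cortex, with a median log2 fold change of -0.88, beside 0.02 over all tested genes, of which 21.3% were called. Ctnnd2, the neuronal delta-catenin gene, was at 685, 927 and 759 CPM in dentate gyrus, against 1439 and 1637 CPM in cortex (log2 -0.96, SE 0.13, adjusted p 0.000706). Ctnna2, the neuronal alpha-catenin gene, was at 41.3, 38.2 and 54.6 CPM in dentate gyrus, against 103 and 93.4 CPM in cortex (log2 -1.14, SE 0.22, adjusted p 0.00449). The tissues did not overlap in either gene. With cortex replicate 1 and dentate gyrus replicate 2 both left out, Ctnna2 had an adjusted p of 0.0851. Ctnnbip1, an inhibitor of beta-catenin signalling, was at 4.66, 4.48 and 7.12 CPM in dentate gyrus, against 24.5 and 44.9 CPM in cortex (log2 -2.68, SE 0.40, adjusted p 0.00113). Ctnnb1, the beta-catenin gene, was at 172 ± 6.64 CPM in dentate gyrus (SD, n = 3), against 250.2 ± 7.53 CPM in cortex (SD, n = 2), with an adjusted p of 0.0152. Leaving out cortex replicate 1 or 2 gave 0.0618 or 0.0766. Pkp4, which encodes a relative of p120 catenin, was the 1 higher in dentate gyrus, at 673 ± 32.7 CPM against 488 ± 28.4 CPM in cortex. Its adjusted p of 0.0136 moved to 0.0615 when dentate gyrus replicate 3 was left out and to 0.132 when cortex replicate 2 was. The remaining calls toward cortex were Ctnnd1 and Ctnna3, which are named with their values seen. Ctnnd1 had an adjusted p of 0.0163, which was 0.115 without cortex replicate 2. Ctnna3 had 0 counts in dentate gyrus and 46 over the cortex libraries, at least 21.8-fold lower in dentate gyrus against a floor of 3 counts over that tissue, and its adjusted p of 0.0436 was over 0.05 whichever library was left out (0.0547 to 0.227).

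Other members of the cadherin superfamily, in a list that also held Fjx1, which is not itself a cadherin, differed in both directions too. Of 27 listed in the files, 15 were tested, with 3 higher in dentate gyrus, 3 in cortex and a median log2 fold change of -0.20. Of all tested genes, 10.5% were higher in dentate gyrus and 10.8% were lower there. Clstn2 and Clstn1 encode calsyntenins, cadherin-like proteins of synaptic membranes, and moved oppositely. Clstn2 was at 405, 396 and 459 CPM in dentate gyrus, against 127 and 126 CPM in cortex (log2 1.73, SE 0.13, adjusted p 2.2e-05). Clstn1 was at 185, 148 and 150.4 CPM in dentate gyrus, against 407 and 402 CPM in cortex (log2 -1.33, SE 0.14, adjusted p 0.000141). The giant cadherins Fat4 and Fat3 were likewise opposed. Fat4 was at 201, 158 and 165 CPM in dentate gyrus, against 17.9 and 48.5 CPM in cortex (log2 2.40, SE 0.37, adjusted p 0.00136). Its log2 fold change was 1.85 without cortex replicate 1 and 3.25 without cortex replicate 2. Fat3 was at 152, 196 and 189.9 CPM in dentate gyrus, against 296 and 386 CPM in cortex (log2 -0.93, SE 0.16, adjusted p 0.00312). Dsg2, a desmosomal cadherin gene, was at 13.4, 13.8 and 15.1 CPM in dentate gyrus against 0.399 and 0.451 CPM in cortex, a log2 fold change of 5.04 (SE 0.57, adjusted p 0.000215). The other call toward cortex was Clstn3, named with its values seen, at an adjusted p of 0.0462. It came to 0.0972 and 0.0982 without dentate gyrus replicates 2 and 3, and 0.183 and 0.132 without cortex replicates 1 and 2.

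Dentate gyrus replicate 2 was the highest dentate gyrus library for 6 of the 8 members higher in cortex, as it was for 42.2% of all genes higher in cortex. Among the 8 members higher in dentate gyrus it was the lowest dentate gyrus library for 3, beside 42.5% of all genes higher in dentate gyrus. Without it, 7 members were called toward dentate gyrus and 11 toward cortex. Without both it and cortex replicate 1, 4 were higher in dentate gyrus (Pcdh20, Cdh9, Pcdh19 and Pcdh17) and 9 in cortex. Pcdh20 then had a log2 fold change of 4.78 and Pcdh10 of -4.16.

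**Figure D5:**
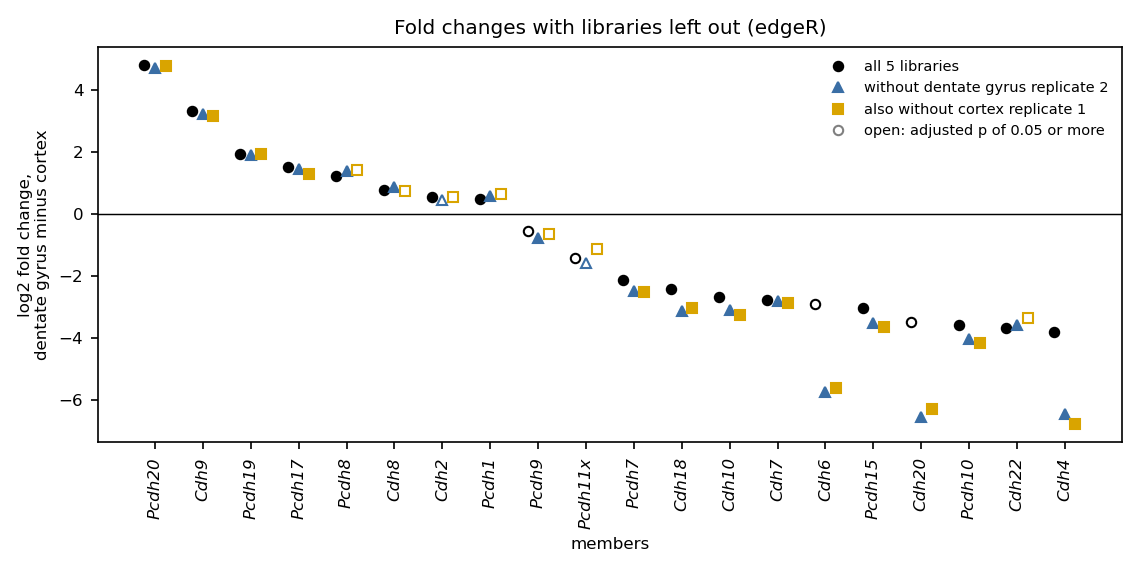
Log2 fold change (dentate gyrus minus cortex) of called members and of Cdh6, Cdh20, Pcdh9 and Pcdh11x with all 5 libraries, without dentate gyrus replicate 2, and also without cortex replicate 1. Open symbols have an adjusted p of 0.05 or more. Cdh4, Cdh6 and Cdh20 moved to -6.45, -5.74 and -6.54 without dentate gyrus replicate 2, and Pcdh20 stayed between 4.71 and 4.81.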

How the data were processed

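The authors deposited raw counts for each gene symbol in each library, made with STAR 2.0.0e and HTSeq on mm10, per the submitters' processing notes. No source used here gives the annotation, the strand setting or the HTSeq version, so reads of antisense partners may share a count. Exons of Gm49127, Gm26851 and Gm9748 overlap Cdh9, Pcdh19 and Pcdh8 on the opposite strand. Those genes are not among the listed genes, so they have no counts to set beside these members. HTSeq's summary rows, which are not genes, entered neither library sizes nor tests. They held 10.6% to 14.8% (no feature), 1.81% to 1.87% (ambiguous) and 25.0% to 31.8% (not unique) of all counted reads. Gene counts summed to 22600963 to 36837908 per library. Floors of 3 counts cover counting error only. Library pairs of 1 tissue differed by more than counting noise (chi-square per degree of freedom 41.3 to 57.9), so none was merged as a duplicate deposit. That does not show that they are independent samples.

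All tests are edgeR 4.0.16 (R 4.3.3) quasi-likelihood F tests on tissue, dentate gyrus minus cortex, with TMM scaling and filterByExpr, fitted on all genes with Benjamini-Hochberg adjustment over all tested genes, and called at an adjusted p under 0.05. The standard error is the log2 fold change divided by the square root of F. CPM are gene counts over all gene rows times the TMM factor. Exon lengths are unions of GENCODE M21 exons. The procedure was tested on simulated data. Alternatives were 2 other scalings, 2 other filters, a replicate block, robust dispersion, a test against 2-fold, DESeq2 1.42.0, limma 3.58.1 voom, removal of Rn45s, each library left out, and 2 libraries left out together. Every called member, and members of at least 10 CPM in a tissue, are named, with the 5 smallest adjusted p of the catenin and superfamily lists. The members and lists were chosen with earlier results of these data known. Figures used matplotlib 3.10.9.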

Additional observations from a re-analysis of the deposited data

How the results depend on the processing

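Over 16 alternatives, 344 of the member fold changes kept direction and side of the threshold, 38 lost and 24 gained the threshold, and 9 changed sign, all among uncalled members. With 1 library left out, log2 fold changes ranged from -0.30 to 0.18 for Cdh11, -0.36 to 0.10 for Cdh13, -0.40 to 1.18 for Cdh15 and -2.44 to 3.20 for Cdh5, the last pair below 0 without dentate gyrus replicate 2. Cdh15 was -0.71 with cortex replicate 1 out as well, and Cdh5 was -0.54 by limma voom. In the same leave-outs, members higher in dentate gyrus numbered 4 to 7 and in cortex 7 to 11, catenin genes higher in dentate gyrus 0 to 1 and in cortex 4 to 6, superfamily genes 3 to 4 and 2 to 3, and all calls 1886 to 2775. Where 1 cortex library is left, it is assumed to vary like the other group. When the change had to exceed 2-fold, 4 members passed toward dentate gyrus and 6 toward cortex, 0 and 1 catenin genes and 3 and 0 superfamily genes were called, with 842 calls in all. Without both cortex replicate 1 and dentate gyrus replicate 2, 4 members and 0 catenin genes were called higher in dentate gyrus, 2 catenin genes higher in cortex and 1578 calls. The causes were not tested, apart from fewer samples or a stricter null by construction. With a replicate block, 5 members and 0 catenin genes were called toward dentate gyrus, and 9 members toward cortex. Same-numbered libraries did not deviate together over the tested genes (correlations of -0.004 and -0.0163). With 2 cortex libraries their deviations mirror each other, so this cannot tell whether same-numbered libraries share an animal or a day. Without a filter on low counts, 12 members were higher in cortex. With 3 and 2 libraries, small differences can be missed, and the 9 members below the filter were not tested. Scarce members rest on few counts, and the strand setting limits those with antisense neighbours.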

Other observations

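A pair of superfamily genes that did not enter the test were seen almost entirely in 1 library each. Fat2 was at 5.33 CPM in cortex replicate 1 and at 0 counts in the other 4 libraries. Dsc3, a desmosomal cadherin gene, was at 5.86 CPM in dentate gyrus replicate 2 and 0.352 CPM in dentate gyrus replicate 3, with 0 counts in dentate gyrus replicate 1 and in cortex.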
